A study of Homo sapiens with 24 samples.

Results

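A set of 10 AP-1 and immediate-early genes was followed across 2 biliary tract cancer cell lines treated with a kinase inhibitor, alone or with an inhibitor of mitochondrial respiration. They are FOS, FOSB, FOSL1, FOSL2, JUN, JUNB, EGR1, IER2, IER3 and NR4A1, taken as a list of symbols. Each of the 10 matched 1 of the 78724 Ensembl gene IDs in the count tables of both lines, and each passed the filter on low counts in both. HuCCT1, from an intrahepatic cholangiocarcinoma, was grown in RPMI-1640, and OCUG-1, from a gallbladder cancer, in DMEM, so line and medium cannot be told apart. Each line had 4 arms of 72 h. One was vehicle (DMSO at up to 0.1%), others received sorafenib at 1.25 µM or at 10 µM, and the last, called the combination below, paired the lower sorafenib dose with IACS-010759 at 1 µM. Sorafenib inhibits RAF and several receptor kinases, and IACS-010759 inhibits complex I of the respiratory chain. No arm held IACS-010759 alone, and every treated arm also carried DMSO. Each arm had 3 libraries, described as independent biological replicates, which gives 24 libraries in 8 groups.

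AP-1 is a dimeric transcription factor made of a JUN protein paired with another JUN protein, a FOS protein or a related basic leucine zipper protein. FOS, FOSB, JUNB, EGR1, IER2 and NR4A1 are classic immediate-early genes: their transcription starts within minutes of a growth factor or stress signal, without new protein synthesis, and their mRNAs are short-lived. The RAF-MEK-ERK cascade drives many of them through serum response factor, which binds the CArG box, and its ELK partners. Cyclic AMP response elements and stress kinases act on others. FOSL1 (FRA1) differs in timing, since it is itself an AP-1 target that accumulates later under sustained ERK signalling, and it is known in epithelial cancers for its link to invasive growth.

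The upstream sequences of EGR1, FOS, FOSB and JUNB are shown because these were the members that fell by over 3-fold in OCUG-1 under both strong treatments. They come from the RefSeq promoter table (GRCh38.p14), which holds 8 of the 10 members, with no entry for FOSL1 and IER3. Each run covers bases 140 to 21 before the RefSeq start, 5′ to 3′. Capitals mark CArG boxes (in EGR1, CCATATTAGG and CCATATATGG), the cyclic AMP response element core TGACG on either strand (CGTCA on the reverse) and the TATA sequence TATAAA.
EGR1 (chr5:138465339-138465458, + strand): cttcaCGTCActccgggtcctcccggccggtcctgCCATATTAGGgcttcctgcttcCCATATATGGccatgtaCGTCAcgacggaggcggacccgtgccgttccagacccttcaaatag
FOS (chr14:75278688-75278807, + strand): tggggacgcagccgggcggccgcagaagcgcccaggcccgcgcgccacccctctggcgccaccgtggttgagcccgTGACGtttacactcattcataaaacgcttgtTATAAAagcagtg
FOSB (chr19:45467856-45467975, + strand): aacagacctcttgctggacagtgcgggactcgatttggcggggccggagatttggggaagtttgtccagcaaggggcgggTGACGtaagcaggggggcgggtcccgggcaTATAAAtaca
JUNB (chr19:12791346-12791465, + strand): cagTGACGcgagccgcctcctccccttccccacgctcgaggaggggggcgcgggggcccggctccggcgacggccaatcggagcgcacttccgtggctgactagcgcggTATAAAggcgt

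All motifs were searched on both strands of the table's promoters, from 250 bases before the start to 50 after. A CArG box was found in 1 of the 8 members and in 1.3% of all 34796 promoters. That member was EGR1, whose 2 copies both lie in the run shown. TGACG, which also forms the start of the full element TGACGTCA, was found in 7 of 8 members against 24.5% of all promoters, and the full element in 0 of 8 against 1.84%. TATAAA was present in FOS, FOSB and JUNB, 3 of 8 against 11.6% of all. The AP-1 site TGANTCA was present in FOSL2 alone, 1 of 8 against 7.73%. GGGCGG, the SP1 box, was present in 5 of 8 against 44.9%, and is not in capitals above. These are matches of letters in fixed windows, not measured binding. Sites further upstream or at other start sites were not searched, so a gene with no match here may still have the motif.

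Most of the genes are small, with FOSL2 (24865 bases) and NR4A1 (36676 bases) the exceptions. By GENCODE release 29 on GRCh38, JUN (chr1:58780788-58784327, - strand), JUNB (chr19:12791496-12793315, + strand) and IER3 (chr6:30743199-30744554, - strand) have exon annotation over their whole length. FOS lies at chr14:75278774-75282230 (+), FOSB at chr19:45467995-45475179 (+), EGR1 at chr5:138465490-138469315 (+), IER2 at chr19:13150415-13154908 (+), FOSL1 at chr11:65892049-65900573 (-), FOSL2 at chr2:28392448-28417312 (+) and NR4A1 at chr12:52022832-52059507 (+). The median gene span was 4160 bases over the 10 members and 32412.5 bases over 14546 tested protein-coding genes with an annotated 3′ UTR. The AU-rich heptamer TATTTAT, a mark of unstable mRNAs, was found in the 3′ UTR of 6 of the 10 (FOS, FOSB, FOSL1, FOSL2, JUN and IER3) and of 34.3% of those genes. Exons on the opposite strand overlap 14.2% of JUNB's exon bases (HOOK2), 30.8% of IER2's (AC011446.2), 26.5% of IER3's (IER3-AS1) and 10.3% of NR4A1's (AC025259.3). Whether the counting used strand is not stated in the labels or notes, so reads from such a pair may have been counted together.

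Levels are given as CPM, the usual scaling of a gene's count to its library's total, here also scaled between libraries. A CPM is a share of a library's RNA, so fewer transcripts per cell and more RNA of other genes cannot be told apart. Total counts per library ran from 18238834 to 30693736 for HuCCT1 and from 14388855 to 24019011 for OCUG-1. Of 7 biliary epithelial markers, all 7 had a mean above 10 CPM in HuCCT1 and 6 in OCUG-1, where CDH1 averaged 2.02 CPM. Several of these markers moved in OCUG-1 along with the members. At 10 µM KRT8 (-1.96 ± 0.13), KRT18 (-1.99 ± 0.13), KRT19 (-1.92 ± 0.12), which encode epithelial keratins, and CDH1 (-1.54 ± 0.31), which encodes E-cadherin, fell, while KRT7 (0.47 ± 0.18) and SOX9 (1.00 ± 0.12) rose, as log2 changes ± SE. With IACS-010759 added 5 of the 7 fell and SOX9 rose. Their part in the members' results was not tested. Endothelial and immune markers stayed below 10 CPM in both lines. COL1A1 and LUM among 5 fibroblast markers exceeded it in both, and the hepatocyte marker FGB did in OCUG-1 (mean 39.3 CPM). At 10 µM in OCUG-1 FGB fell by 4.46 on the log2 scale and COL1A1 by 1.64. LUM was not called there (-0.04, 95% interval from -0.68 to 0.60). Among the other tested hepatocyte and fibroblast markers, CYP3A4 fell (-4.09), ALB rose (3.41) and DCN was not called (-0.09). CYP3A4 and ALB were near the floor, with means of 0.47 and 1.06 CPM. HuCCT1 vehicle replicate 1 was the lowest of its group for 9 of the 10 members, HuCCT1 10 µM replicate 3 for 7 of 10, OCUG-1 10 µM replicate 2 for 8 of 10 and OCUG-1 combination replicate 1 for 7 of 10. Over all genes, replicate 3 of HuCCT1 vehicle, 1.25 µM and 10 µM lay far from replicates 1 and 2, at 31.9 to 59.0 by a chi-square statistic divided by its degrees of freedom. The same statistic was 6.08 to 13.5 for replicates 1 and 2 of these arms and 4.89 to 26.7 in the other arms. In each of these arms replicate 3 also had the lowest share of counts from mitochondrial DNA. The part of these libraries in the results was not tested beyond leaving each out, and setting the 3 HuCCT1 libraries aside together, and results that rest on them are given both ways.

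**Figure D1:**
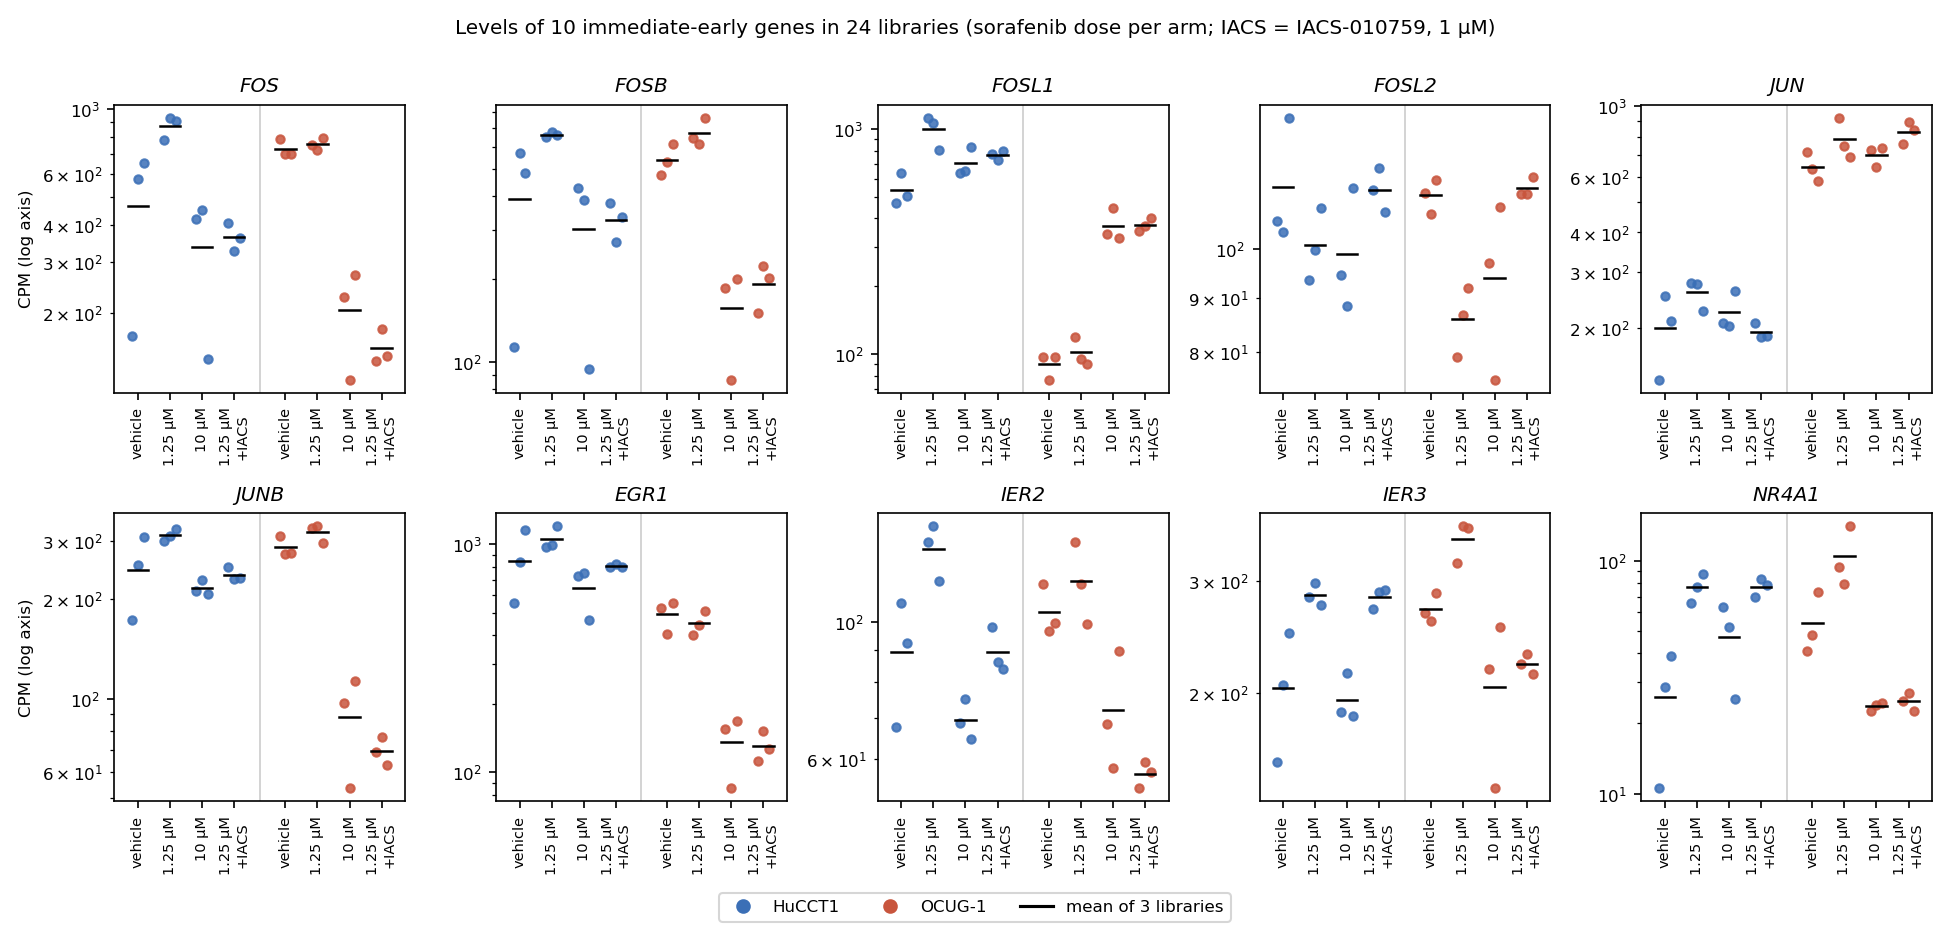
Levels of the 10 genes in CPM (log axis, a separate scale per gene) in each of 24 libraries, by arm, HuCCT1 in blue and OCUG-1 in red, with black bars for the mean of 3 libraries. In OCUG-1 the FOSL1 points of 10 µM sorafenib and of the combination lie between 328 and 443 CPM, above every vehicle point, while FOS, FOSB, JUNB, EGR1 and NR4A1 lie below every vehicle point.

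At 10 µM sorafenib OCUG-1 had lower levels of most of these genes and a higher level of FOSL1. Of the 10 genes, 1 rose (FOSL1) and 7 fell (EGR1, FOS, FOSB, JUNB, NR4A1, IER2 and IER3), with FOSL2 and JUN not past the threshold of an adjusted p of 0.05. In this comparison 63.1% of all 20511 genes tested were called, 32.4% higher and 30.7% lower, so that 8 of 10 called is not far above the background share. The median log2 fold change was -0.86 over the 10 genes and 0.00 over all genes tested.

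Among the FOS proteins, FOS, the founding member with a strong activation domain, stood at 790, 699 and 699 CPM in OCUG-1 vehicle and at 227, 119 and 270 CPM at 10 µM. The groups did not overlap, and the log2 fold change was -1.83 ± 0.22 (SE; adjusted p = 3.8e-06, edgeR quasi-likelihood). FOSB, its closest relative, went from 473, 527 and 615 CPM to 186, 86.4 and 200 CPM, a change of -1.77 ± 0.26 (adjusted p = 4.7e-05). Replicate 2 of the 10 µM arm was the lowest library for both genes. FOSL1, which lacks that activation domain, moved the other way. Its levels were 97.1, 76.9 and 97.0 CPM in vehicle and 342, 443 and 328 CPM at 10 µM, with replicate 2 the highest. The fold was 4.11 and the log2 change 2.04 ± 0.14 (adjusted p = 6.7e-10). FOSL2 (FRA2) stood at 113, 108 and 116 CPM in vehicle and 97.0, 75.3 and 110 CPM at 10 µM, overlapping groups with an adjusted p of 0.057. Its difference of -0.26 had a 95% interval from -0.50 to -0.02, and it was called lower without 10 µM replicate 3 (-0.38, adjusted p = 0.0095).

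Of the JUN proteins, JUNB, which often opposes JUN on shared sites, was at 311, 275 and 277 CPM in OCUG-1 vehicle and 97.0, 53.5 and 113 CPM at 10 µM. It fell by 1.71 on the log2 scale (SE 0.19, adjusted p = 1.5e-06). JUN, the strongest activator of its family, was at 715, 634 and 579 CPM against 727, 640 and 735 CPM. These groups overlapped, the log2 difference was 0.13 with a 95% interval from -0.12 to 0.38, and the test did not call it (adjusted p = 0.37).

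EGR1, a zinc finger factor that ERK signalling switches on, stood at 525, 405 and 551 CPM in OCUG-1 vehicle and at 155, 85.3 and 168 CPM at 10 µM. The change was -1.86 ± 0.21 (adjusted p = 2.6e-06), with no overlap. NR4A1, an orphan nuclear receptor, went from 40.8, 47.8 and 73.8 CPM to 22.7, 24.1 and 24.5 CPM, or -1.19 ± 0.22 (adjusted p = 0.00023). IER2, a small nuclear protein, and IER3, a regulator of survival under stress, moved less. IER2 went from 115, 96.7 and 99.8 CPM to 68.4, 58.0 and 89.7 CPM (-0.53 ± 0.14, adjusted p = 0.0029), and IER3 from 267, 259 and 287 CPM to 218, 141 and 253 CPM (-0.41 ± 0.15, adjusted p = 0.022). The IER3 call was lost without 10 µM replicate 2 (-0.20, adjusted p = 0.12) or without vehicle replicate 3 (-0.37, adjusted p = 0.070), and with those 6 libraries alone (adjusted p = 0.0501). The other 7 calls held whichever of the 6 libraries was left out. The share of counts from mitochondrial DNA moved with these groups, from 13.6%, 11.1% and 11.9% in vehicle to 6.25%, 5.65% and 5.95% at 10 µM and 4.71%, 6.48% and 5.11% in the combination, and its part in the results was not tested.

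Adding IACS-010759 to 1.25 µM sorafenib changed 9 of the 10 members in OCUG-1, tested against the 1.25 µM arm. FOSL1 and FOSL2, the latter not called at 10 µM, rose, the 7 genes that fell at 10 µM fell, and JUN was not called. The share of all genes called was 58.1%, with 31.4% higher and 26.7% lower. The median was -1.41 over the 10 genes and 0.06 over all genes. All 9 calls held whichever library was left out.

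FOSL1 stood at 119, 95.2 and 90.5 CPM with 1.25 µM sorafenib and at 352, 370 and 400 CPM in the combination, a log2 change of 1.88 ± 0.14 (adjusted p = 2.7e-09). No library of one group reached the other. FOSL2 went from 79.2, 86.7 and 92 CPM to 113, 113 and 117 CPM (0.41 ± 0.12, adjusted p = 0.0055). Against vehicle the combination's FOSL2 differed by 0.02, with a 95% interval from -0.22 to 0.26. FOS went from 754, 724 and 794 CPM to 138, 176 and 143 CPM, 4.98-fold lower, the largest fall of the 10 genes in these data's 6 comparisons within OCUG-1 (log2 -2.31 ± 0.22, adjusted p = 5.6e-07). FOSB went from 646, 617 and 765 CPM to 151, 223 and 201 CPM (-1.82 ± 0.26, adjusted p = 4.8e-05).

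JUNB went from 329, 333 and 297 CPM to 68.8, 76.3 and 63.0 CPM, a log2 change of -2.20 ± 0.20 (adjusted p = 1.6e-07). NR4A1, the member that had risen at 1.25 µM, went from 93.6, 79.5 and 141 CPM to 24.9, 27.1 and 22.7 CPM, 4.19-fold lower (adjusted p = 1.6e-06). EGR1 went from 402, 443 and 509 CPM to 112, 152 and 127 CPM, 3.46-fold lower (adjusted p = 5.1e-06). In all 3 genes the groups were far apart relative to the spread of their libraries. IER2 went from 135, 115 and 99.3 CPM to 53.7, 59.3 and 57.1 CPM (-1.04 ± 0.14, adjusted p = 5.4e-06), and IER3 from 320, 365 and 362 CPM to 222, 230 and 214 CPM (-0.65 ± 0.15, adjusted p = 0.0010). JUN was at 919, 750 and 690 CPM against 762, 891 and 838 CPM, overlapping, with a 95% interval of the log2 difference from -0.17 to 0.33.

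**Figure D2:**
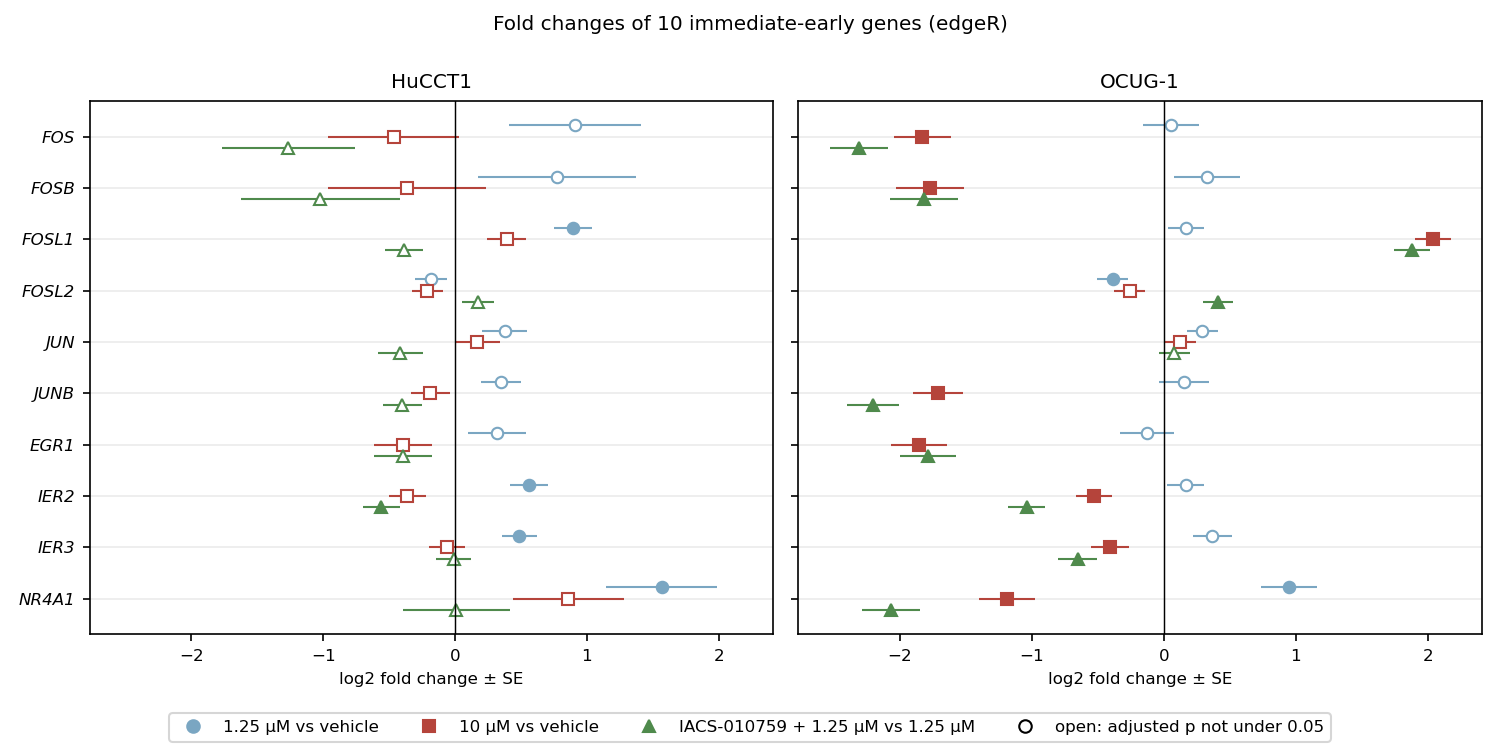
Log2 fold changes of the 10 genes with their SE in 3 comparisons per line, filled where the adjusted p was under 0.05. In OCUG-1, FOSL1 lies at 2.04 and 1.88 for 10 µM sorafenib and added IACS-010759 and FOS at -1.83 and -2.31, while in HuCCT1 the filled points are the 4 rises at 1.25 µM and the fall of IER2 with IACS-010759.

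Against vehicle rather than 1.25 µM sorafenib, the OCUG-1 combination had 2 members higher and 6 lower, where 59.5% of all genes were called, 31.5% higher and 28.1% lower. FOSL1 was 2.05 higher on the log2 scale and JUN 0.37 higher (adjusted p = 0.012), and the 6 lower were FOS, JUNB, EGR1, FOSB, NR4A1 and IER2, from -2.26 for FOS to -0.87 for IER2. The JUN call was lost without vehicle replicate 3 (0.30, adjusted p = 0.075) or combination replicate 2 (0.32, adjusted p = 0.051). Between 10 and 1.25 µM sorafenib, 1 member rose and 7 fell where 60.5% of all genes were called, 31.6% higher and 29% lower, from FOSL1 at 1.87 to NR4A1 at -2.14. These comparisons share arms with the ones above and are not independent of them.

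The OCUG-1 combination and 10 µM sorafenib were also compared directly. None of the 10 genes was called by edgeR or by DESeq2, 2 had an unadjusted p under 0.05 by edgeR (FOSL2 and IER2), and 5.25% of all genes were called, 3.17% higher and 2.08% lower. For FOSL1 the difference was 0.01 with a 95% interval from -0.26 to 0.29, and for EGR1 -0.06 with an interval from -0.51 to 0.38. For FOS it was -0.43, from -0.88 to 0.02. Without 10 µM replicate 2, the lowest library of that arm for 8 of the members, 3 genes were lower in the combination: FOS at -0.73 (adjusted p = 0.0019), JUNB at -0.62 (adjusted p = 0.0038) and IER2 at -0.50 (adjusted p = 0.036).

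At 1.25 µM sorafenib alone 2 of these genes were called in OCUG-1. NR4A1 rose from 40.8, 47.8 and 73.8 CPM in vehicle to 93.6, 79.5 and 141 CPM (0.95 ± 0.21, adjusted p = 0.013), and FOSL2 fell from 113, 108 and 116 CPM to 79.2, 86.7 and 92 CPM (-0.39 ± 0.12, adjusted p = 0.040). That is 2 of 10, where 10.5% of all genes were called, 5.92% higher and 4.61% lower. The FOSL2 call was lost with any of the 6 libraries left out, at adjusted p values up to 0.14, and with no filter on low counts (adjusted p = 0.052), and that of NR4A1 without vehicle replicate 1 (0.78, adjusted p = 0.058). IER3 was not called, although its groups, at 267, 259 and 287 CPM against 320, 365 and 362 CPM, did not overlap. It was called higher with no filter on low counts (0.40, adjusted p = 0.013) and with the compared groups alone (0.39, adjusted p = 0.028). NR4A1 was the member that was higher at the low dose and lower at the high dose, by calls in each comparison and by the direct test between the doses (-2.14 ± 0.22, adjusted p = 9.9e-07).

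In HuCCT1, 4 members were called at the low dose and 0 at 10 µM. With 1.25 µM sorafenib FOSL1, NR4A1, IER2 and IER3 rose and none fell, 4 of 10 where 18.5% of all 19576 genes were called, 9.98% higher and 8.5% lower. The median log2 fold change was 0.52 over the 10 genes and 0.00 over all. FOSL1 was at 468, 636 and 504 CPM in vehicle and 1120, 1066 and 804 CPM at 1.25 µM, without overlap (0.89 ± 0.15, adjusted p = 0.00086), and this call held with each of the 6 libraries left out.

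NR4A1 was at 10.5, 28.7 and 39.0 CPM in HuCCT1 vehicle and 65.7, 77.3 and 87.7 CPM at 1.25 µM (1.57 ± 0.42, adjusted p = 0.028). The groups did not overlap, yet the call was lost in 4 of 6 fits without a library (without vehicle replicate 2 and without each 1.25 µM library, adjusted p 0.062 to 0.078) and with no filter on low counts (adjusted p = 0.11). IER2 went from 67.7, 108 and 92.7 CPM to 135, 143 and 117 CPM (0.56 ± 0.14, adjusted p = 0.012). IER3 went from 155, 206 and 248 CPM to 282, 297 and 274 CPM (0.49 ± 0.13, adjusted p = 0.020). Without vehicle replicate 1 the calls of IER2 (0.39, adjusted p = 0.059) and IER3 (0.33, adjusted p = 0.091) were lost and 2 members remained. Both were also lost without 1.25 µM replicate 2 (0.50 and 0.46, adjusted p = 0.066 and 0.082), and IER3 with library size scaling (0.34, adjusted p = 0.079) and with those 6 libraries alone (adjusted p = 0.063). With the 3 HuCCT1 libraries that lay apart set aside, 5 members were called, JUNB (0.52, adjusted p = 0.0069) and EGR1 (0.51, adjusted p = 0.0095) among them, and IER2 was not (0.67, adjusted p = 0.052).

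FOS in HuCCT1 shows how wide the vehicle group was. Its levels were 167, 577 and 653 CPM in vehicle and 782, 934 and 912 CPM at 1.25 µM, so that every treated library exceeded every vehicle library. The test did not call it (0.91 ± 0.50, adjusted p = 0.24). FOSB had 114, 572 and 484 CPM against 652, 677 and 664 CPM (0.77 ± 0.60, adjusted p = 0.41). In HuCCT1 the biological coefficient of variation was 0.414 for FOS, 0.494 for FOSB and 0.350 for NR4A1, against a median of 0.146 over all genes. In the other line the values were 0.182, 0.214 and 0.180, against a median of 0.143. The share of counts from mitochondrial DNA was 11.8%, 14.1% and 7.08% in the 3 HuCCT1 vehicle libraries, where replicate 1 was neither highest nor lowest. It was 21.8%, 19.4% and 12.5% at 1.25 µM, and its part in these results was not tested.

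At 10 µM sorafenib none of the 10 genes passed the threshold in HuCCT1 by edgeR, where 24.2% of all genes were called, 13% higher and 11.2% lower. By DESeq2 1 did (FOSL1, 0.40, adjusted p = 0.043), and 2 had an unadjusted p under 0.05 by edgeR. FOSL1 was at 635, 647 and 830 CPM, partly within the vehicle range of 468 to 636 CPM (0.39 ± 0.15, adjusted p = 0.061). FOS was at 421, 451 and 140 CPM and EGR1 at 727, 746 and 467 CPM, with replicate 3 the lowest in both. Without vehicle replicate 1, 3 members were lower at 10 µM: IER2 (-0.53, adjusted p = 0.0093), JUNB (-0.39, adjusted p = 0.030) and EGR1 (-0.62, adjusted p = 0.031). Without vehicle replicate 2, FOSL1 was higher (0.53, adjusted p = 0.024). With the 3 HuCCT1 libraries that lay apart set aside, NR4A1 was higher (1.61, adjusted p = 0.041).

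Between the doses HuCCT1 had 5 members lower at 10 µM than at 1.25 µM, where 28.2% of all genes were called, 14.4% higher and 13.7% lower. They were IER2 (-0.92 ± 0.14, adjusted p = 0.00028), EGR1 (-0.71 ± 0.22, adjusted p = 0.027), IER3 (-0.55 ± 0.13, adjusted p = 0.0068), JUNB (-0.53 ± 0.15, adjusted p = 0.014) and FOSL1 (-0.50 ± 0.15, adjusted p = 0.018). Of these 5, IER2 changed most, at 68.6, 75.2 and 64.7 CPM against 135, 143 and 117 CPM. FOS was not called, although its groups, at 421, 451 and 140 CPM against 782, 934 and 912 CPM, did not overlap. DESeq2 called FOS lower (-1.37, adjusted p = 0.037), as did edgeR with the compared groups alone (-1.36, adjusted p = 0.018). The calls of IER2, IER3 and JUNB held with each library left out. That of FOSL1 was lost in 4 of 6 such fits (without 1.25 µM replicate 1 or 2 or 10 µM replicate 1 or 2, adjusted p up to 0.088) and that of EGR1 in 3 (without 1.25 µM replicate 2 or 3 or 10 µM replicate 3, adjusted p up to 0.12) and with no filter on low counts (adjusted p = 0.062). With library size scaling IER2 alone remained called.

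Adding IACS-010759 to 1.25 µM sorafenib lowered 1 member in HuCCT1, IER2, from 135, 143 and 117 CPM to 98.2, 86.1 and 83.8 CPM (-0.56 ± 0.14, adjusted p = 0.018), where 11.6% of all genes were called, 5.06% higher and 6.57% lower. This call was lost in 4 of 6 fits without a library (either of 1.25 µM replicates 1 and 2, or of combination replicates 2 and 3), at adjusted p values up to 0.091, and with library size scaling (-0.37, adjusted p = 0.071). FOS was at 406, 326 and 362 CPM in the combination, below all 3 libraries of the 1.25 µM arm, but the estimate used the spread of all 12 libraries (-1.26 ± 0.50, adjusted p = 0.14). With those 6 libraries alone FOS gave -1.25 ± 0.11 (adjusted p = 7.3e-05), and FOSB, JUN, JUNB and EGR1 were called lower too, 6 members in all. With the 3 HuCCT1 libraries that lay apart set aside, FOSL1 (-0.52, adjusted p = 3.6e-05) and JUNB (-0.37, adjusted p = 0.025) were called lower beside IER2, and FOSL2 higher (0.23, adjusted p = 0.013). IER3 (270, 288 and 290 CPM) and NR4A1 (69.7, 83.5 and 79.0 CPM) overlapped the 1.25 µM arm, with 95% intervals of -0.29 to 0.27 and -0.89 to 0.91.

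Against vehicle the HuCCT1 combination had 3 members higher, FOSL1 (0.51 ± 0.15, adjusted p = 0.022), IER3 (0.48 ± 0.13, adjusted p = 0.020) and NR4A1 (1.58 ± 0.42, adjusted p = 0.025), where 20.1% of all genes were called, 9.94% higher and 10.1% lower. Leaving out 1 library at a time, the FOSL1 call was lost in 4 of 6 fits (without vehicle replicate 1 or 3 or combination replicate 1 or 3, adjusted p up to 0.11) and the IER3 call in 3 (without vehicle replicate 1 or combination replicate 2 or 3, adjusted p up to 0.096). That of NR4A1 was lost in 4 (without vehicle replicate 2 or any combination library, adjusted p 0.051 to 0.069) and with no filter on low counts (adjusted p = 0.10). Against 10 µM sorafenib 1 member, IER3, was higher (0.54 ± 0.13, adjusted p = 0.022), where 7.69% of all genes were called, 2.06% higher and 5.63% lower. That call was lost in 5 of 6 fits without a library, at adjusted p values from 0.055 to 0.097. With the 3 HuCCT1 libraries that lay apart set aside it was called, and FOSL2 too (0.31, adjusted p = 0.0020).

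In vehicle the lines differed in 4 of the 10 genes, where 68.3% of all 22944 genes in the joint fit were called, 35.6% higher and 32.7% lower in OCUG-1. FOSL1 was 6.65-fold lower in OCUG-1, at 97.1, 76.9 and 97.0 CPM against 468, 636 and 504 CPM in HuCCT1 (-2.73 ± 0.15, adjusted p = 1.0e-15). JUN was 2.87-fold higher in OCUG-1, at 715, 634 and 579 CPM against 138, 252 and 210 CPM (1.52 ± 0.15, adjusted p = 6.0e-10). EGR1 was lower in OCUG-1 (-0.95 ± 0.25, adjusted p = 0.0021), although its groups touched by CPM. The CPM are scaled within each line and the folds come from the joint fit, so they need not match. NR4A1 was higher (0.89 ± 0.38, adjusted p = 0.044), a call lost without HuCCT1 vehicle replicate 1 (0.50, adjusted p = 0.18) or 2 (0.96, adjusted p = 0.069) and without OCUG-1 vehicle replicate 2 (0.96, adjusted p = 0.058) or 3 (0.60, adjusted p = 0.21), and with no filter on low counts (adjusted p = 0.11). IER3, not called here, was higher in OCUG-1 without HuCCT1 vehicle replicate 3 (0.40, adjusted p = 0.024). It was also called with the 3 HuCCT1 libraries that lay apart set aside (0.40, adjusted p = 0.027) and with library size scaling (0.40, adjusted p = 0.014). Over all 8 groups FOSL1 had the widest range of group means, 11-fold between HuCCT1 at 1.25 µM and OCUG-1 vehicle, and FOSL2 the narrowest, with every neighbouring pair of groups overlapping. For FOSL1 every HuCCT1 group lay above every OCUG-1 group, and for JUN every OCUG-1 group above every HuCCT1 group.

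The response to 10 µM sorafenib differed between lines in 4 of the 10 genes, by the test of the difference itself, where 43.8% of all genes were called, 20.7% higher and 23.1% lower. The log2 change of FOSL1 was 1.58 ± 0.20 higher in OCUG-1 (adjusted p = 2.9e-07). NR4A1 was lower by -2.12 ± 0.53 relative to HuCCT1 (adjusted p = 0.0036), JUNB by -1.60 ± 0.26 (adjusted p = 1.7e-05) and EGR1 by -1.54 ± 0.35 (adjusted p = 0.0012). All 4 calls held with each of the 12 libraries left out. FOS and FOSB had differences of similar size, -1.44 ± 0.60 and -1.48 ± 0.72, that did not pass (adjusted p = 0.061 and 0.11), although DESeq2 called FOS (-1.38, adjusted p = 0.046). Without HuCCT1 10 µM replicate 3 both passed, at -1.81 and -1.91 (adjusted p = 0.010 and 0.018), which made 6 members. FOS also passed without HuCCT1 vehicle replicate 3 (-1.76, adjusted p = 0.036) or OCUG-1 10 µM replicate 3 (-1.69, adjusted p = 0.046), as did IER3 (adjusted p = 0.022 and 0.016). With the 3 HuCCT1 libraries that lay apart set aside, 7 members differed, FOS by -2.14, FOSB by -2.10 and IER3 by -0.63 besides the 4.

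The response to added IACS-010759 differed in 6 of the 10, where 38.8% of all genes were called, 18.6% higher and 20.2% lower. They were FOSL1 by 2.15 ± 0.21 (adjusted p = 2.1e-09), NR4A1 by -2.19 ± 0.53, JUNB by -1.92 ± 0.26, EGR1 by -1.51 ± 0.35, IER3 by -0.76 ± 0.21 and IER2 by -0.60 ± 0.21 (adjusted p = 0.022 for IER2, lower for the others). For FOSL1 the estimates had opposite signs, 1.88 in OCUG-1 and -0.39 in HuCCT1. The IER2 difference was lost without HuCCT1 1.25 µM replicate 3 (-0.50, adjusted p = 0.066), HuCCT1 combination replicate 1 (-0.50, adjusted p = 0.076) or OCUG-1 1.25 µM replicate 1 (-0.46, adjusted p = 0.085), and with the 3 HuCCT1 libraries that lay apart set aside (-0.53, adjusted p = 0.065). At 1.25 µM sorafenib 1 of 10 differed, where 9.65% of all genes were called, 4.96% higher and 4.69% lower. It was FOSL1 by -0.69 ± 0.20 (adjusted p = 0.030), a larger rise in HuCCT1, lost in 8 of 12 fits without a library at adjusted p values up to 0.099.

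**Figure D3:**
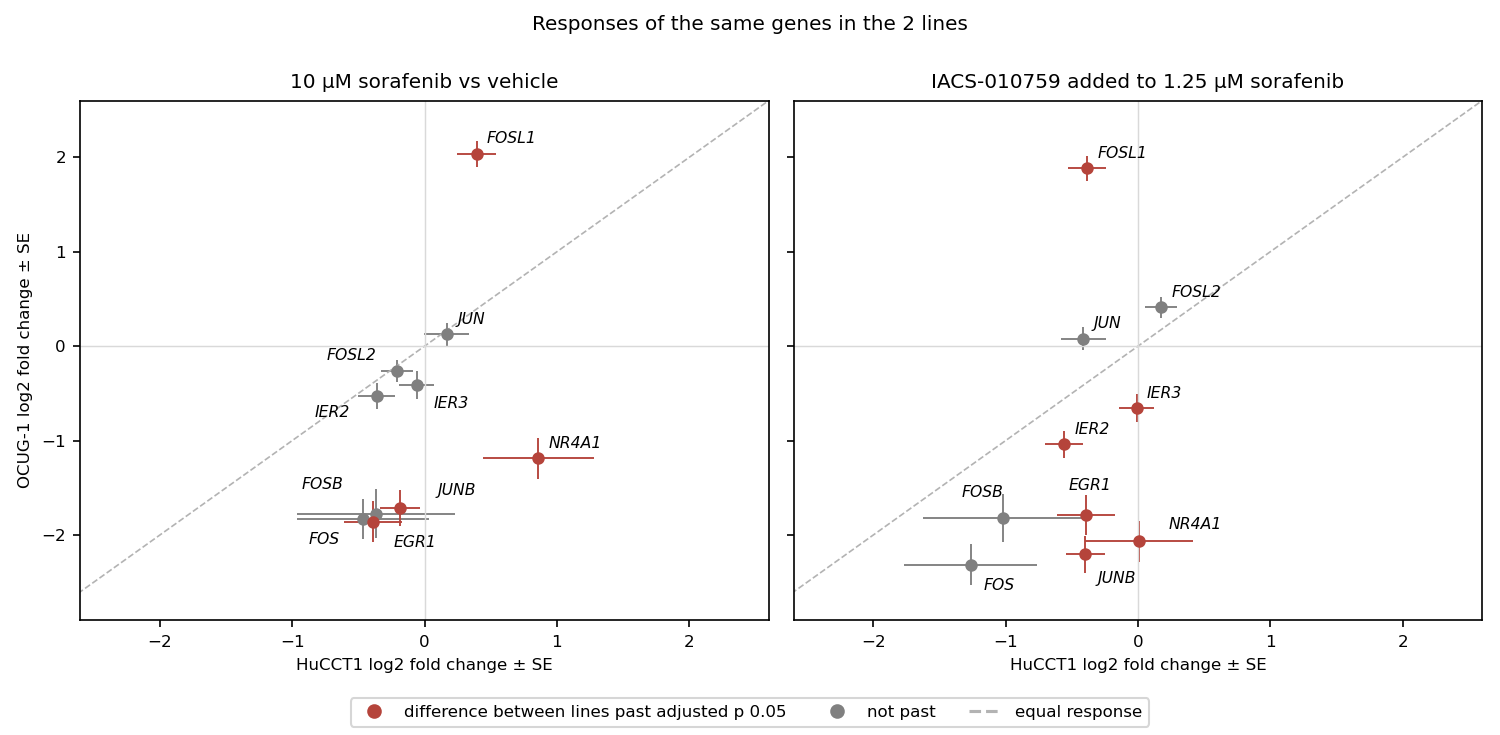
Log2 fold change of each gene in HuCCT1 (horizontal) and OCUG-1 (vertical), with SE bars, for 10 µM sorafenib and for IACS-010759 added to 1.25 µM sorafenib; red marks genes whose difference between lines passed an adjusted p of 0.05 and the dashed line equal responses. FOSL1 lies far above the line in both panels, at 2.04 and 1.88 in OCUG-1, and EGR1, JUNB and NR4A1 lie below it.

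Between genes, levels are comparable only per length, here as FPKM, the CPM divided by the exon length in kilobases. In HuCCT1 vehicle FOSL1 made up 57.9% ± 14.3 (SD, n = 3) of the summed FPKM of FOS, FOSB, FOSL1 and FOSL2, and FOS 26.2% ± 9.96. OCUG-1 vehicle had the reverse order, with FOS at 58.4% ± 3.41 and FOSL1 at 12.4% ± 1.10. At 10 µM sorafenib FOSL1 held 65.3% ± 12 of the OCUG-1 family and FOS 20.9% ± 7.69, and in the combination the shares were 67.1% ± 2.68 and 15.9% ± 1.75. The summed FPKM of the family went from 386 ± 16.5 in OCUG-1 vehicle to 302 ± 6.19 at 10 µM. In the combination it was 296 ± 20.5. In proportion the sum moved less than FOS, FOSB and FOSL1, but more than FOSL2, at 15.7, 13.1 and 16.0 FPKM in these arms. In HuCCT1 the FOSL1 share was 56.4% ± 5.49 at 1.25 µM, 68.8% ± 14.2 at 10 µM and 68.4% ± 1.96 in the combination. Single libraries carried part of these means. Without replicate 3, at 85.2%, the HuCCT1 10 µM share was 60.6%, and without replicate 1, at 74.0%, that of HuCCT1 vehicle was 49.9%. Without replicate 2, at 78.9%, the OCUG-1 share at 10 µM was 58.5%. The mean FOSL1 shares of OCUG-1 at 10 µM and in the combination lay within the range of the HuCCT1 group means, and that of OCUG-1 vehicle lay below it. These shares are descriptions and were not tested.

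JUN, JUNB and JUND shifted in OCUG-1 as well. JUN held 32.8% ± 1.94 of their summed FPKM in vehicle, 66.1% ± 1.94 at 10 µM and 67.9% ± 0.54 in the combination, although its own level was not called changed at 10 µM. JUND, the most constantly expressed JUN gene, fell from 422, 360 and 408 CPM to 103, 102 and 95.7 CPM at 10 µM (-1.98 ± 0.12, adjusted p = 1.4e-10), and its share went from 38.6% ± 2.1 to 18.1% ± 2.32. The JUNB share went from 28.6% ± 0.23 to 15.8% ± 4.24 and, in the combination, 11.1% ± 1.07. The summed FPKM of the JUN genes went from 552 ± 41.0 to 300.0 ± 30.6 and 346 ± 29.7. In HuCCT1 JUNB was the largest of the 3 in every arm, at 51.6% to 53.7%.

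**Figure D4:**
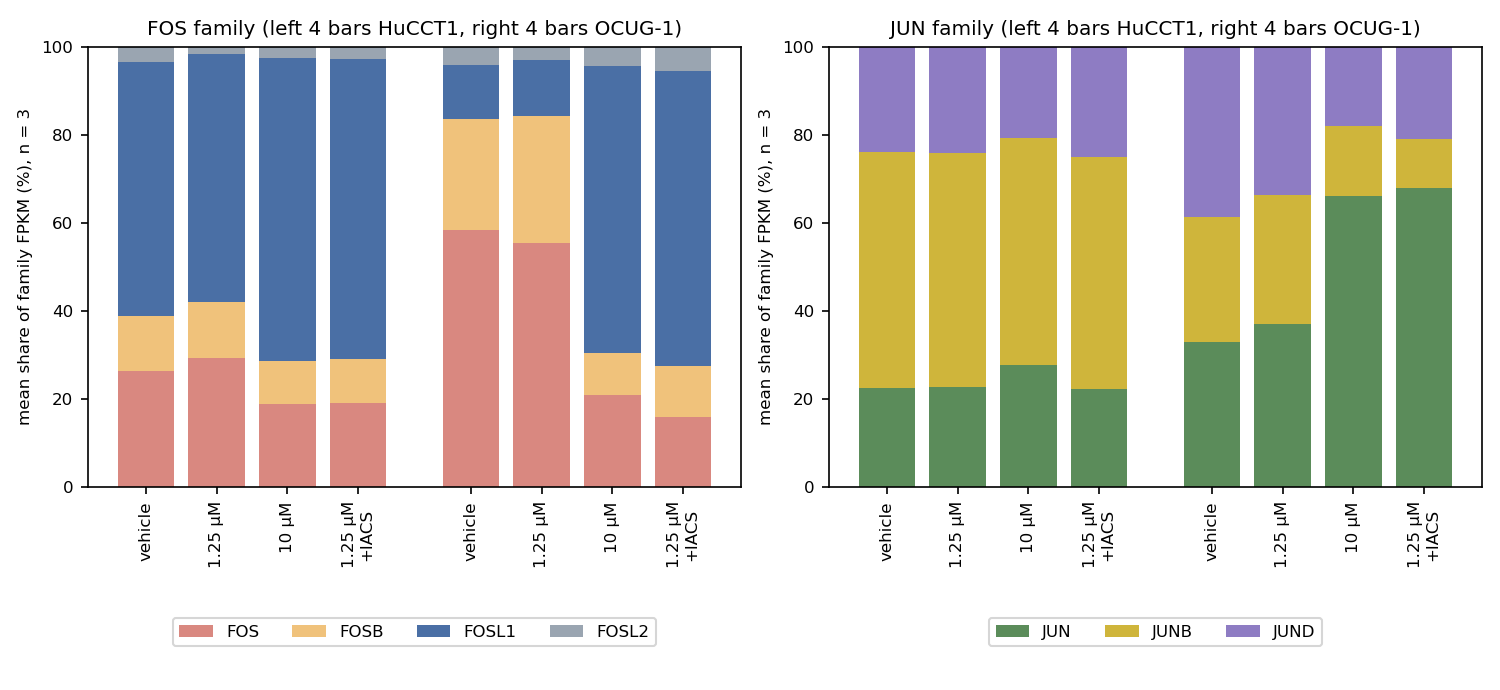
Stacked bars of the mean share (%) of each gene in the summed FPKM of the FOS family (left) and of the JUN genes (right), n = 3 libraries per bar, HuCCT1 on the left of each panel and OCUG-1 on the right. The FOSL1 part of OCUG-1 grows from 12.4% in vehicle to 65.3% and 67.1%, and the JUN part from 32.8% to 66.1% and 67.9%.

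The counts of the gene lists that follow stand beside the shares of all genes called. In OCUG-1 these were 10.5% at 1.25 µM, 63.1% at 10 µM and 58.1% with IACS-010759 added, and in HuCCT1 18.5%, 24.2% and 11.6%. Other partners of AP-1 in the list of 11 were tested in the same fits, 10 of them in OCUG-1. At 10 µM 7 rose and 1 (JUND) fell there, with a median log2 change of 0.90. ATF3, a stress-induced partner of JUN, was at 100.5, 116 and 121 CPM in vehicle and 298, 220 and 361 CPM at 10 µM (1.38 ± 0.16, adjusted p = 1.4e-06). MAFF (1.40 ± 0.12) and JDP2 (1.34 ± 0.16), a small MAF protein and a JUN dimerization protein, rose by similar amounts. In HuCCT1 at 10 µM the list had 0 higher and 2 lower of 11, BATF2 (-1.33 ± 0.17) and BATF (-0.37 ± 0.12). With IACS-010759 added in HuCCT1, ATF3 fell from 116, 118 and 105.4 CPM to 51.6, 38.5 and 49.2 CPM (-1.28 ± 0.33, adjusted p = 0.030).

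Of 17 tested genes that AP-1 is known to drive, 12 rose and 0 fell in OCUG-1 at 1.25 µM, a dose at which FOSL1 was not called, and 5 did not pass. At 10 µM 13 rose, 2 fell and 2 did not pass. The median log2 change was 0.62 and 1.09, against -0.03 and 0.00 over all genes tested. Tested directly between the doses, 10 were higher and 4 lower at 10 µM, where 60.5% of all genes were called. The collagenase MMP1 stood at 159, 238 and 206 CPM in vehicle, 549, 691 and 779 CPM at 1.25 µM, 1755, 1616 and 1825 CPM at 10 µM, and 4178, 3085 and 2873 CPM in the combination. Each of these groups lay above the one before it. PLAU, which encodes urokinase, was at 19.6, 23.1 and 20.7 CPM in vehicle, 57.1, 56.9 and 53.2 CPM at 1.25 µM and 63.0, 55.3 and 63.1 CPM at 10 µM. PLAUR, its receptor, rose by 1.58 ± 0.11 at 10 µM. MMP3 had 0 to 2 counts per vehicle library and 145 to 219 at 10 µM, so no fold is given. In HuCCT1 the list split, with 3 higher and 2 lower of 16 at 1.25 µM and 2 higher and 4 lower at 10 µM.

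ERK output genes, which encode feedback inhibitors and factors that ERK signalling induces, were mostly higher in OCUG-1 at 10 µM, the dose at which FOS and EGR1 fell. Of 10 tested, 8 rose and 0 fell at each dose, with a median log2 change of 0.82 at 1.25 µM and 1.41 at 10 µM. Tested directly between the doses, 7 were higher and 3 lower at 10 µM, where 60.5% of all genes were called. ETV5 went from 13.6, 13.8 and 15.4 CPM in vehicle to 39.6, 42.8 and 49.8 CPM at 1.25 µM and 72.3, 76.5 and 76.3 CPM at 10 µM, with no overlap between doses. PHLDA1 (1.62 ± 0.09) and SPRY2 (1.75 ± 0.15) also rose at 10 µM. In HuCCT1 2 of 10 rose at 1.25 µM, DUSP6 (0.78 ± 0.17) and DUSP5 (1.03 ± 0.28), and SPRED1 fell, while at 10 µM 1 rose and 0 fell.

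Among 26 further immediate-early genes, 25 were tested in OCUG-1, and at 10 µM 15 rose and 6 fell, where 32.4% of all genes rose and 30.7% fell. The median log2 change was 0.78. More of this list rose than fell in the arm in which 7 of the 10 members fell. ZFP36, whose protein degrades AU-rich mRNAs, fell from 428, 405 and 393 CPM to 82.5, 55.7 and 76.9 CPM (-2.51 ± 0.14, adjusted p = 7.5e-11). SGK1, a kinase gene, rose from 32.5, 33.8 and 39.2 CPM to 226, 168 and 255 CPM (2.62 ± 0.15), and GADD45B, a stress gene, by 2.56 ± 0.17. In HuCCT1 6 of 24 rose and 2 fell at 1.25 µM, led by NR4A2 (1.45 ± 0.19) and KLF2 (1.35 ± 0.22).

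Of 23 upstream kinases and factors, 11 rose and 7 fell in OCUG-1 at 10 µM, with a median of 0.30. With 63.1% of all genes called there, 18 of 23 is not far above the background share. MAP2K1, which encodes MEK1, was at 37.3, 42.7 and 38.6 CPM in vehicle and 120, 127 and 124 CPM at 10 µM (1.65 ± 0.12, adjusted p = 9.9e-10), and ELK3 rose by 1.43 ± 0.14. ARAF (-0.61 ± 0.10) and RPS6KA1 (-0.59 ± 0.10) fell. In HuCCT1 at 10 µM 4 rose and 2 fell, 6 of 23 where 24.2% of all genes were called.

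Heat-shock genes rose in OCUG-1 in the comparisons in which most members fell. All 8 tested rose at 10 µM, with a median of 2.19, and 7 of 8 with IACS-010759 added. BAG3, a co-chaperone, was at 101, 118 and 102 CPM in vehicle and 805, 746 and 985 CPM at 10 µM (2.98 ± 0.13), HSPH1 rose by 2.93 ± 0.15 and DNAJB1 by 2.24 ± 0.15. HSPA1A rose by 3.65 ± 0.23, and shares nearly identical sequence with HSPA1B, so reads could be split between them. At 10 µM in HuCCT1 0 of 8 rose and 2 fell. Compared directly in OCUG-1, 5 of the 8 were lower in the combination than at 10 µM, where 5.25% of all genes were called. None of the 10 members was called in that comparison. The part of these heat-shock gene changes in the levels of the members was not tested.

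**Figure D5:**
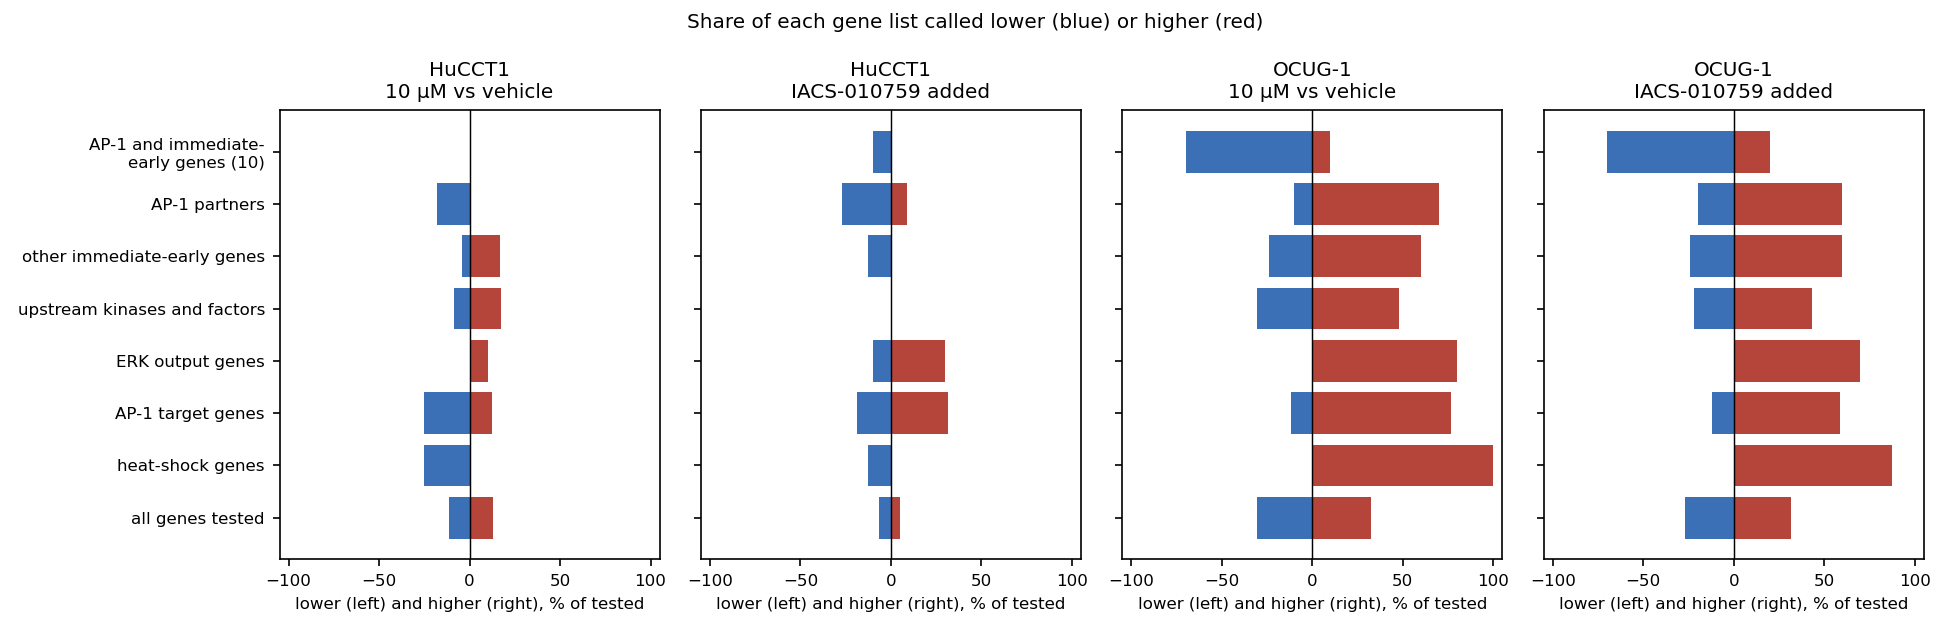
Share (%) of the tested genes of each list called lower (blue, left) or higher (red, right) in 2 comparisons per line, with all genes tested at the bottom. In OCUG-1 the 10 members are mostly lower, 7 lower and 1 higher at 10 µM, while each of the other 6 lists drawn has more genes higher than lower.

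The genes whose log2 CPM followed the members most closely over the 12 libraries of a line were found among 9421 genes in HuCCT1 and 9907 in the other line. In OCUG-1 these included WDR74 and NOP16 for FOSL1 (Pearson r 0.995 and 0.994). For EGR1 they were SMAD6, NFKBIA and SOX5 (0.989, 0.989 and 0.987), for JUN DRAP1, LYPD1 and SLC25A39 (0.950, 0.893 and 0.879), and for IER3 CAPG, SLC39A11 and FLOT2 (0.960, 0.960 and 0.958). In HuCCT1 they were ANKRD18A, CARD16 and SNRPA for FOSL1 (0.965, 0.961 and 0.960) and NUP214, LINC03040 and DNAJB1 for EGR1 (0.954, 0.948 and 0.945). For JUN they were PPP1R15A, DUSP5 and ZC3H12A (0.899, 0.855 and 0.854), and those for IER3 included ECHS1 and MRPL43 (0.944 and 0.929). None of these names recurs between the lines for the same member. The libraries of an arm share their treatment, and a correlation here carries no test.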

How the data were processed

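RNA sequencing was done on 24 libraries of total RNA from 2 cell lines, with 3 libraries in each of 8 groups. The authors deposited a table of unnormalized counts for each line, with Ensembl IDs as rows. Per the submitters' processing notes, the tools named were fastp 1.3.2, HISAT2 2.2.2, featureCounts of Subread 2.1.1, bcl2fastq, MultiQC 1.33, R 4.4.1 and DESeq2 1.42.1, with build GRCh38. No source used here states the gene annotation, whether strand was used, or how multi-mapping reads were treated. Per the labels, 4 OCUG-1 libraries had extra runs treated as technical replicates, without saying which.

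From the counts, edgeR 4.0.16 in R 4.3.3 was run with TMM scaling, filterByExpr (minimum count 10) and robust quasi-likelihood F tests, fitted to each line's 12 libraries, and to all 24 for differences between lines. Calls are two-sided at a Benjamini-Hochberg adjusted p under 0.05 over all genes tested. Standard errors come from the F statistic, and 95% intervals from it and the t distribution of the fit's degrees of freedom. CPM uses TMM factors of each line's own table. FPKM divides CPM by GENCODE 29 exon length, on GRCh38. Of 78724 gene IDs, 61481 were in the gene name table and 57302 in GENCODE 29. The chi-square per degree of freedom between replicates ran from 4.89 to 59.0 over 24 pairs, so counting error is small beside the spread between replicates, and the highest values were those of replicate 3 in HuCCT1 vehicle, 1.25 µM and 10 µM sorafenib. Replicate numbers showed no pairing of the libraries as a whole.

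The 10 members and the gene lists were chosen with earlier results of these data known. All 10 members are named in the comparisons they were called in. From each other list, genes among the 4 smallest adjusted p of a comparison could be named, and any AP-1 partner. For FOSL1, EGR1, JUN and IER3 the 3 most correlated genes with a mean of at least 10 CPM (log2 CPM, prior count 2) are named, except 2 that are not reported here. The fits were tested on simulated counts with known changes. Alternatives were RLE scaling, library size scaling, no filter on low counts, a replicate block, DESeq2 1.42.0, the compared groups alone, and leaving out each library. Setting those 3 HuCCT1 libraries aside together was chosen after seeing the data.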

Additional observations from a re-analysis of the deposited data

Results flagged for a closer look

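Responses that differed between the lines, by the test of the difference itself in the fit of 24 libraries (edgeR, adjusted over 22944 genes), are listed here as log2 fold change in OCUG-1 minus that in HuCCT1. At 1.25 µM sorafenib the FOSL1 difference was -0.69. At 10 µM sorafenib the differences were 1.58 for FOSL1, -1.60 for JUNB, -1.54 for EGR1 and -2.12 for NR4A1. For IACS-010759 added to 1.25 µM sorafenib they were 2.15 for FOSL1, -1.92 for JUNB, -1.51 for EGR1, -0.60 for IER2, -0.76 for IER3 and -2.19 for NR4A1. The lines also differ in medium, which cannot be told apart from the line.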

How the results depend on the processing

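Over all alternatives no member's called change turned direction. Of the 14 calls in HuCCT1, 4 held in every fit without a library, of 35 in OCUG-1 31 did, and of 15 between lines 12 did. The number of members called in HuCCT1 at 10 µM against vehicle, 0 in the reported fit, was 1 with library size scaling, 2 with no filter on low counts and 1 with DESeq2. For IACS-010759 added in HuCCT1, reported as 1, it was 0 with library size scaling, 4 with no filter and 6 with the compared groups alone. For 10 against 1.25 µM in HuCCT1, reported as 5, it was 1 with library size scaling. For the HuCCT1 combination against 10 µM, reported as 1, it was 2 with no filter and 2 with the compared groups alone, and for the same comparison in OCUG-1, reported as 0, it was 1 with no filter. Library size scaling moved the median of all genes by -0.14 at 1.25 µM, 0.19 with IACS-010759 added and 0.18 between doses in HuCCT1, and by -0.13, 0.21 and 0.15 in OCUG-1; FOSL1 and the members that fell in OCUG-1 kept their direction and call. It also moved the share of all called genes that were higher, in HuCCT1 from 54.0% to 26.7% at 1.25 µM, from 43.5% to 82.4% with IACS-010759 added and from 51.2% to 77.5% between doses, and in OCUG-1 from 56.2% to 28.8% at 1.25 µM. With no filter the HuCCT1 share with IACS-010759 added was 57.5%. With the compared groups alone 3474 genes were called for IACS-010759 added in HuCCT1 in place of 2276, and 717 for the combination against 10 µM in OCUG-1 in place of 1077. With one library left out, the counts ranged from 1 to 5 for HuCCT1 at 1.25 µM, 0 to 3 at 10 µM, 3 to 4 between doses, 0 to 2 with IACS-010759 added, 0 to 2 for the combination against vehicle and 0 to 1 against 10 µM. In OCUG-1 they ranged from 0 to 1 at 1.25 µM, 7 to 9 at 10 µM, 8 to 8 between doses, 9 to 9 with IACS-010759 added, 7 to 8 for the combination against vehicle and 0 to 3 against 10 µM. Between lines they ranged from 3 to 5 in vehicle, 0 to 1 for 1.25 µM, 4 to 6 for 10 µM and 5 to 6 for IACS-010759. With replicate 3 of HuCCT1 vehicle, 1.25 µM and 10 µM set aside, an alternative chosen after seeing the data, the counts were 1 for HuCCT1 at 10 µM, 4 with IACS-010759 added, 2 for the combination against 10 µM and 7 for the difference between lines at 10 µM, in place of 0, 1, 1 and 4. In HuCCT1 it raised the number of all genes called from 3616 to 6258 at 1.25 µM, from 2276 to 6851 with IACS-010759 added, from 3931 to 6580 for the combination against vehicle and from 1506 to 3955 against 10 µM, where the share of called genes that were higher went from 26.8% to 39.6%. The cause of these shifts was not tested, beyond fewer samples where a library was left out. The replicate numbers showed no pairing of the libraries as a whole. The deviations of libraries with 1 number correlated at a median of 0.05 (HuCCT1, highest 0.40) and -0.03 (OCUG-1, highest 0.24). In HuCCT1 6 and in OCUG-1 3 of 12 libraries correlated best with their own number. A factor shared by only some libraries of 1 number was not tested for. With the replicate number as a block, 3 members were called in HuCCT1 at 1.25 µM in place of 4 and 9 in OCUG-1 at 10 µM in place of 8. It ended the calls of NR4A1 in HuCCT1 at 1.25 µM (adjusted p = 0.068) and in the combination against vehicle (0.066), of EGR1 between the HuCCT1 doses (0.057) and of EGR1 between the lines in vehicle (-0.65 ± 0.32, 0.089), and it added FOSL2 in OCUG-1 at 10 µM (0.049) and IER3 between the lines in vehicle (0.019).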
